A study of Bos taurus with 8 samples.

Results

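The miR-26 family was measured in small RNA from the sera and the serum exosomes of 4 healthy lactating Holstein cows. Of the 534 miRNAs listed in the files, 445 had reads, and 3 of them are named as miR-26: bta-miR-26a, bta-miR-26b and bta-miR-26c. The members were chosen by their names alone, without an arm suffix or with the suffix of the 5p or the 3p arm, and no row with a suffix was found. The family was taken up with its levels and its differences between sera and exosomes in these libraries already known, so these values are given as a description and without p-values. All 3 members had reads in all 8 libraries.

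For each cow, 1 library was made from serum, which had been separated from clotted whole blood by centrifugation, and 1 from exosomes, the small vesicles that cells release, isolated from the same serum with a commercial kit. The methods describe no removal of exosomes from the serum used for the sera libraries. The RNA kit and the serum volume differed between the sample types, and their effects cannot be told apart from that of the sample type. The values are in RPM, the reads of a miRNA scaled to the same total of miRNA reads in every library, so that each value stands for a proportion and not for an amount. More of a miRNA and less of the other miRNAs cannot be told apart on this scale, nor can the number of releasing cells and the release per cell.

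MiRNAs guide the silencing complex to messenger RNAs that pair with the seed, a short stretch near the 5′ end. MiR-26a and miR-26b are closely related, widely expressed miRNAs with the same seed, and their known targets include EZH2, a histone methyltransferase. In mammals their hairpins lie within genes of small phosphatases that act on the tail of RNA polymerase II, and the miRNAs are made together with the transcripts of these genes. In the RefSeq gene table of the assembly ARS-UCD2.0, the gene MIR26A-1 lies within the bounds of CTDSPL, MIR26A-2 within CTDSP2 and MIR26B within CTDSP1. The gene of miR-26c, MIR26C, has the same start and the same end as MIR26A-1 and is therefore also within CTDSPL. The table does not give strands. MiR-26a can come from 2 genes and miR-26b from 1.

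The depth of the libraries sets the precision of these values. MiRNA reads numbered 264769 to 590162 per sera library and 60682 to 157710 per exosome library. At these depths 1 read equals 1.69 to 3.78 RPM in a sera library and 6.34 to 16.5 RPM in an exosome library. The members rested on 709 to 3195 reads per library in sera and on 78 to 891 in exosomes. The thinnest value was that of miR-26b in the exosomes of cow 1, where 78 reads gave 1285 RPM with a 95% Wilson interval from 1030 to 1604 RPM. The intervals cover the counting error of independent reads only, and they are too narrow where PCR copies of a molecule were read more than once.

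MiR-26a was the most abundant member, followed by miR-26c and miR-26b, and this order held in 8 of 8 libraries. In sera, miR-26a was present at 7658, 5414, 8626 and 6027 RPM in cows 1 to 4, with a mean of 6931 ± 1474 RPM (SD, n = 4). In exosomes, it was present at 6757, 3774, 5359 and 5650 RPM, with a mean of 5385 ± 1231 RPM (SD, n = 4). The ranges of sera and exosomes overlapped, and cow 2 had the lowest level in both. Within cows, the serum had 1.07 to 1.61 times the level of the exosomes, and it was higher in 4 of 4 cows.

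MiR-26a ranked 29 by mean RPM in sera and 31 in exosomes. Its neighbours in this order in sera were miR-181a with 6954 ± 1174 RPM and miR-16a with 6824 ± 2313 RPM (SD, n = 4). In exosomes they were miR-10a with 5729 ± 1717 RPM and miR-140 with 5085 ± 1538 RPM (SD, n = 4). None of these neighbours differed from miR-26a by more than the spread between cattle.

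MiR-26b was the least abundant member and had the largest fold difference in RPM between the sample types. In sera, it was present at 2654, 2025, 3456 and 1960 RPM in cows 1 to 4, with a mean of 2524 ± 696 RPM (SD, n = 4). In exosomes, it was present at 1285, 1014, 1337 and 1072 RPM, with a mean of 1177 ± 158 RPM (SD, n = 4). The 4 sera values were all above the 4 exosome values, and cow 3 had the highest level in both sample types. The serum had 1.83 to 2.58 times the level of the exosomes of the same cow.

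MiR-26b ranked 53 in sera, between miR-375 with 2551 ± 270.4 RPM and miR-425-5p with 2296 ± 566 RPM (SD, n = 4). In exosomes it ranked 69, between miR-126-3p with 1232 ± 156 RPM and miR-301a with 1171 ± 125 RPM (SD, n = 4). MiR-26b was within 1 SD of each of these 4 neighbours.

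The rows of miR-26c followed those of miR-26a. In sera, miR-26c was listed at 6295, 4316, 6995 and 4858 RPM in cows 1 to 4, with a mean of 5616 ± 1242 RPM (SD, n = 4). In exosomes, it was listed at 5537, 3189, 4364 and 4641 RPM, with a mean of 4433 ± 969 RPM (SD, n = 4). The order of the cows was the same as for miR-26a in both sample types, and sera and exosomes overlapped. The serum was higher in 4 of 4 cows, by 1.05 to 1.60 times. Its rank by mean RPM was 33 in sera and 34 in exosomes.

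**Figure D1:**
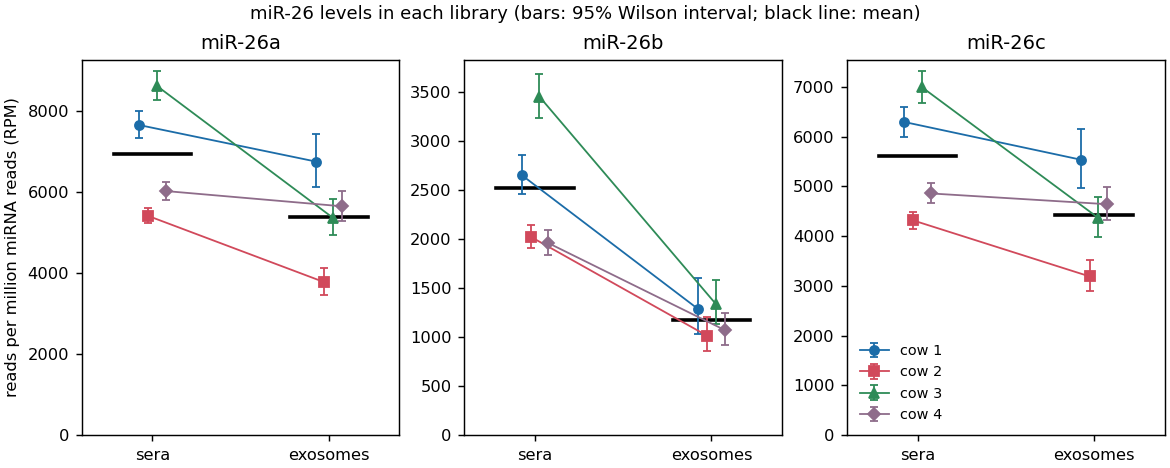
Level of each miR-26 member in RPM (vertical axis, from 0) in the sera and exosomes (horizontal axis), with 1 symbol and line per cow, the 95% Wilson interval of counting as bars and the mean of the sample type as a black line. The 4 sera values of miR-26b lie between 1960 and 3456 RPM, all above the 1014 to 1337 RPM of exosomes, while sera and exosomes overlap for miR-26a and miR-26c, whose panels have the same shape.

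The spread between cattle was close to that of other miRNAs for miR-26a and miR-26c. The coefficient of variation of miR-26a was 21.3% in sera and 22.9% in exosomes, against a median of 23.3% and 24.4% over the 128 miRNAs that reached 10 reads in each of the 8 libraries. That of miR-26c was 22.1% and 21.9%. The coefficient of variation of miR-26b was 27.6% in sera and 13.5% in exosomes, where 21 of the 128 miRNAs had a lower value. With 4 cows per sample type, these coefficients are given as a description.

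The 3 members summed to 1.66%, 1.18%, 1.91% and 1.28% of all miRNA reads in serum for cows 1 to 4. The exosomes of these cows gave sums of 1.36%, 0.798%, 1.11% and 1.14%. On average this was 1.51% ± 0.338 in sera, against 1.10% ± 0.230 in exosomes (SD, n = 4), with overlapping ranges. Without miR-26c, the shares were 0.945% ± 0.215 in sera and 0.656% ± 0.134 in exosomes (SD, n = 4).

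The question of whether sera and exosomes carry different levels was addressed with limma on log2(RPM + 1) over the 365 miRNAs that passed 1 RPM in 2 or more libraries from sera or from exosomes. A miRNA was called when its log2 fold change (FC) passed 1 in either direction at a false discovery rate (FDR) under 0.05. The log2 FC, sera minus exosomes, was 0.37 for miR-26a, 1.07 for miR-26b and 0.34 for miR-26c, each with a standard error of 0.22. This fit leaves out the pairing of the libraries by cow. With the cow as a replicate block in limma, the standard errors were 0.11 for miR-26a, 0.13 for miR-26b and 0.12 for miR-26c. Of the 3 members, 1, miR-26b, was past both limits and higher in sera. Over all miRNAs tested, 4.38% were called, and 3.01% were called as higher in sera. Many of these miRNAs had few reads. In a fit of the 128 miRNAs that reached 10 reads in each of the 8 libraries, 13 were called, 9 of them as higher in sera. Sera libraries lay above exosome libraries without overlap for 11.8% of the miRNAs tested and for 1 of the 3 members. Nothing is read from these counts, since the call of miR-26b was known when the family was taken up.

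The calls over all miRNAs were 11 higher in sera and 5 higher in exosomes, with miR-339a and miR-339b, 2 rows with the same values, among the 5. This split differed between settings of scaling and tool. With limma it was 6 and 6 with TMM scaling and 0 and 6 with the sequences in analysis as the denominator. It was 6 and 8 with edgeR and TMM and 3 and 13 with DESeq2, where the model differs as well as the scaling. With the cow as a replicate block, it was 29 and 6 with limma and 13 and 13 with edgeR. The median log2 FC of the 365 miRNAs was 0.57, and that of the 128 miRNAs that reached 10 reads in each library was 0.31. The median of these 128 was 0.11 with TMM scaling, -0.02 with DESeq2 and -0.39 with the sequences in analysis as the denominator. Relative to the median of these 128 miRNAs, miR-26a and miR-26c were near the middle and miR-26b above it. By log2 FC, miR-26b was in place 8 of the 128 miRNAs, miR-26a in place 59 and miR-26c in place 60.

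**Figure D2:**
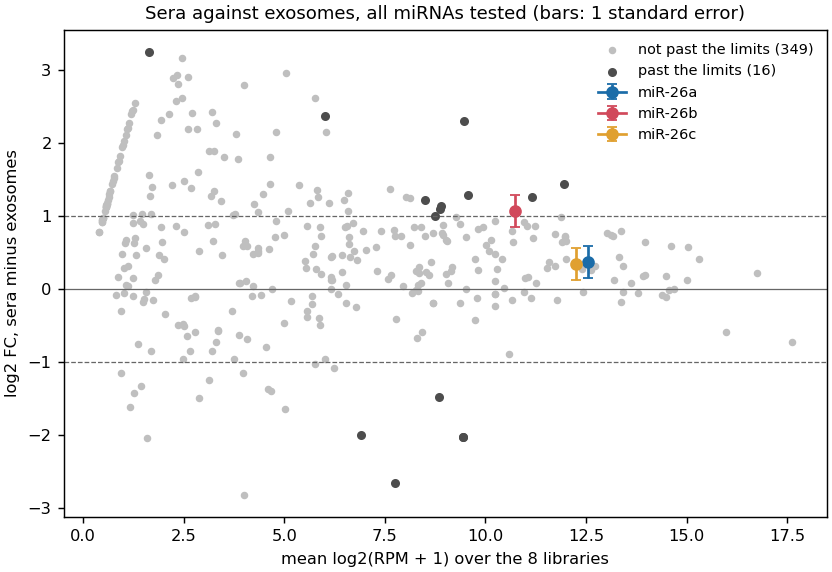
Log2 FC of sera minus exosomes (vertical axis) against the mean log2(RPM + 1) over the 8 libraries (horizontal axis) for the 365 miRNAs tested, with the 16 past the limits in dark grey, the members in colour with bars of 1 standard error, and dashed lines at 1 and -1. MiR-26b lies just above the limit at 1.07, and miR-26a and miR-26c lie close together at 0.37 and 0.34.

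The difference of miR-26b stood close to the limit of the fold change, and its call depended on the scaling and the tool. Its log2 FC was 0.87 with TMM scaling in limma and with edgeR on the recovered reads, and 0.75 with DESeq2, none of which passes a log2 FC of 1. Its mean was higher in sera in each of these fits. With the sequences in analysis as the denominator, the log2 FC was 0.36 for miR-26b, -0.34 for miR-26a and -0.37 for miR-26c. On average, miR-26a and miR-26c were then lower in sera. On that scale miR-26b was higher in the serum in 3 of 4 cows and miR-26a in 1 of 4. The serum had 1.54, 1.82, 1.53 and 0.64 times the level of the exosomes for miR-26b in cows 1 to 4. For miR-26a these values were 0.84, 1.30, 0.95 and 0.37, and for miR-26c 0.85, 1.23, 0.95 and 0.37. Cow 4 gave the lowest of each. MiRNA reads made up 16.9% of the sequences in its exosome library, against 8.04% to 11.3% in the exosomes of cows 1 to 3. The part of that library in the log2 FC was not tested. In RPM and without the sera library of cow 3, the highest for all members, the log2 FC of miR-26b was 0.91 and the call was lost.

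The levels of blood cell miRNAs are given beside these values, and their part in them was not tested. The 6 miRNAs on the list of erythrocyte miRNAs, none of which was at 0, summed to 22.9% to 32.5% of the sera reads and to 26.9% to 49.1% of the exosome reads. Of these 6 miRNAs, limma called 2 as higher in sera and 0 as higher in exosomes, with a median log2 FC of 0.32. At an unadjusted p under 0.05 the numbers were 3 and 2, and edgeR called 1 and 0. Over all 365 miRNAs, the corresponding numbers were 11 and 5 with limma, 83 and 11 at an unadjusted p under 0.05, and 6 and 8 with edgeR. The sums of sera and exosomes overlapped, and the members of the list differed in direction. MiR-486, the most abundant, ranged from 129743 to 200043 RPM in sera and, in exosomes, from 173610 to 348852 RPM. MiR-92a was higher in each exosome library, with 61550 to 98088 RPM against 48447 to 57000 RPM for the sera libraries. In the other direction and without overlap, miR-16a ranged from 5383 to 10235 RPM in sera and from 2043 to 2811 RPM in exosomes. MiR-16b, with 16083 to 22967 against 9772 to 14260 RPM, and miR-144, with 520.3 to 819 against 265 to 387 RPM, were also higher in each sera library. The levels of miR-451 overlapped between the sample types, with a log2 FC of -0.003. The 7 platelet and leukocyte miRNAs took 4.71% to 5.28% in sera and 4.17% to 5.31% in exosomes, with a median log2 FC of 0.27. Limma and edgeR each called 0 of the 7, and at an unadjusted p under 0.05 limma had 3 higher in sera and 0 in exosomes. When the erythrocyte miRNAs were left out of the reads and of the fit, an alternative added once the data had been seen, the log2 FC was 0.79 for miR-26b, 0.09 for miR-26a and 0.06 for miR-26c.

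**Figure D3:**
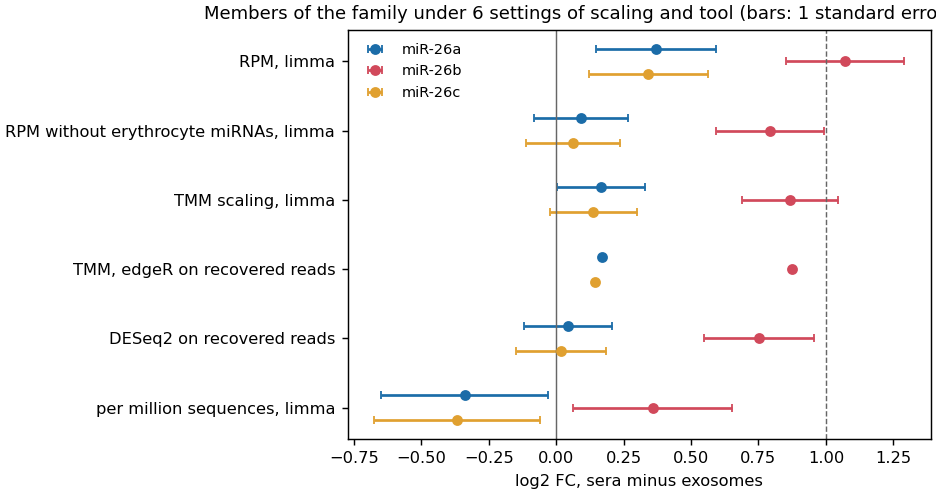
Log2 FC of sera minus exosomes (horizontal axis, line at 0 and dashed line at the limit of 1) for the members under 6 settings of scaling and tool (vertical axis), with bars of 1 standard error where the tool gives it. MiR-26b runs from 0.36 to 1.07 and is above miR-26a in each setting, and miR-26a and miR-26c fall below 0 only with the sequences in analysis as the denominator.

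The balance between miR-26b and miR-26a within a library does not depend on the denominator of RPM. The ratio of miR-26b to miR-26a in serum was 0.347, 0.374, 0.401 and 0.325 for cows 1 to 4. In the exosomes of these cows it was 0.190, 0.269, 0.250 and 0.190. The ratios of sera and exosomes did not overlap. The mean ratio was 0.362 ± 0.0328 in sera and 0.225 ± 0.0406 in exosomes (SD, n = 4). On the log2 scale the difference was 0.70, a fold of 1.63, with a standard error of 0.15 that leaves out the pairing by cow. Within cows, the ratio was 1.82, 1.39, 1.61 and 1.71 times higher in the serum of cows 1 to 4, and the SD of the 4 log2 differences was 0.17. Of the 125 other miRNAs that reached 10 reads in each library, 6.4% had a ratio to miR-26a that was higher in every sera library than in every exosome library.

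The ratio of miR-26c to miR-26a was nearly the same in every library. In serum it was 0.822, 0.797, 0.811 and 0.806 for cows 1 to 4. In the exosomes of these cows it was 0.820, 0.845, 0.814 and 0.822. The mean over the 8 libraries was 0.817 ± 0.0141 (SD). The chi-square of the reads of the pair over the libraries was 0.157 per degree of freedom, where independent counting of 2 miRNAs in a fixed ratio would give about 1. For miR-26b and miR-26a the same quantity was 16.6. Over all 8128 pairs of the 128 miRNAs, its median was 18.4, and 0.541% of the pairs were below 1.

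The log2 ratio of miR-26c to miR-26a had an SD of 0.02 over the 8 libraries, against a median of 0.58 over all pairs. The ratio was steadier in 4 pairs, which were miR-339a with miR-339b, miR-199a-3p with miR-199c, miR-2284x with miR-2284y, and miR-2284aa with miR-2284z. These pairs were named after their values were seen. Because the genes of miR-26c and miR-26a-1 have the same bounds and their ratio varied by less than counting noise, the rows of miR-26a and miR-26c may not be separate measurements, and the counts and sums over 3 members above hold both. Whether the same reads were counted under both names was not tested.

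**Figure D4:**
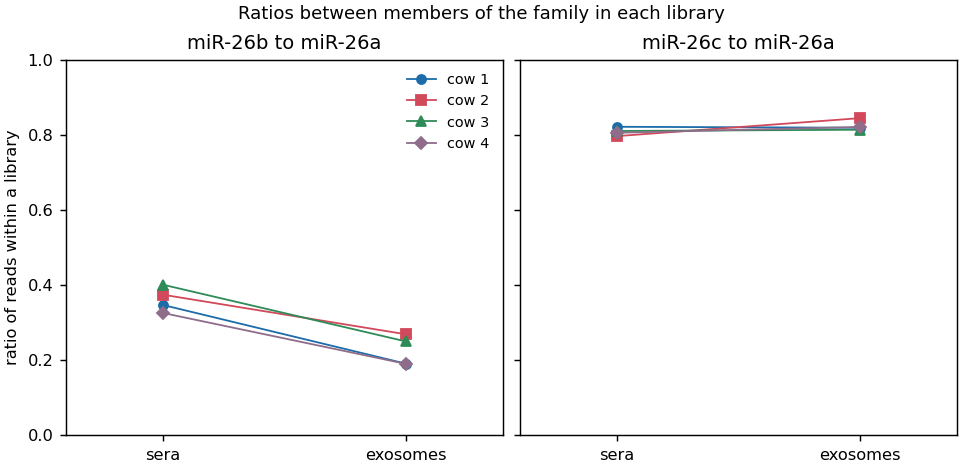
Ratio of miR-26b to miR-26a (left) and of miR-26c to miR-26a (right) within each library (vertical axis, from 0 to 1) in sera and exosomes (horizontal axis), with 1 symbol and line per cow. The ratio of miR-26b is between 0.325 and 0.401 in sera and between 0.190 and 0.269 in exosomes, lower in the exosomes of every cow, and that of miR-26c is between 0.797 and 0.845 in both.

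**Figure D5:**
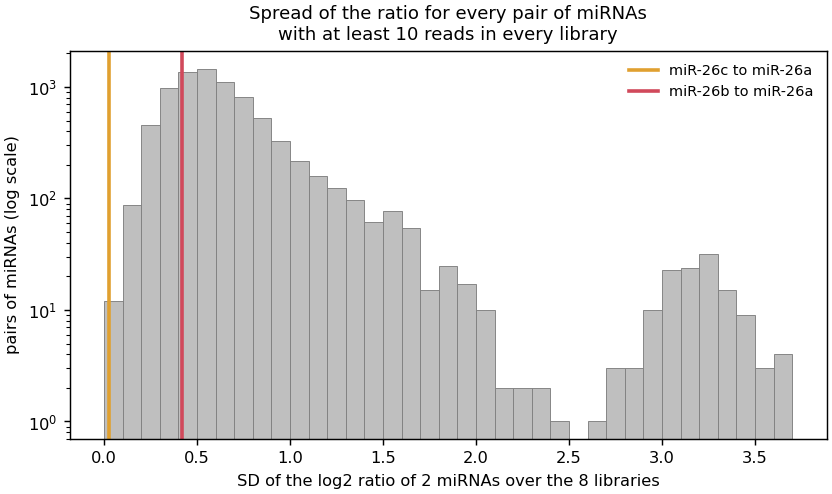
Number of pairs of miRNAs (vertical axis, log scale) by the SD of their log2 ratio over the 8 libraries (horizontal axis, bins of 0.1) for the 8128 pairs among the 128 miRNAs that reached 10 reads in each library. The pair of miR-26c and miR-26a lies in the lowest bin, which holds 12 pairs, and the pair of miR-26b and miR-26a lies at 0.42.

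The miRNAs whose pattern over the libraries was most like that of each member were found by the Pearson r of log2(RPM + 1) over the 8 libraries, among the same 128 miRNAs. The 8 points share 4 cows and fall into 2 sample types, so r is given as a description. Outside the family, miR-26a was most like miR-151-5p (r = 0.983), followed by miR-532 (0.933), miR-22-3p (0.917), miR-142-3p (0.910) and miR-1246 (0.864). The same 5 miRNAs in the same order were most like miR-26c. MiR-26b was most like miR-361 (r = 0.983), followed by miR-24-3p (0.980), miR-128 (0.979), miR-320a (0.950) and let-7g (0.941). The lists of miR-26a and miR-26b had no miRNA in common. Nothing is read from this, since lists of 5 among so many miRNAs would seldom share one. Between miR-26a and miR-26b, r was 0.780.

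Since miR-26b itself was higher in each sera library, the choice by r favours miRNAs with the same difference. MiR-24-3p had a mean of 1697 RPM in sera and 328 RPM in exosomes, and miR-361 of 1218 and 495 RPM. MiR-128 had 2861 and 1570 RPM. With the mean of each sample type removed from the log2 values, which leaves the differences between cows, r with miR-26b was 0.914 for miR-361, 0.890 for miR-24-3p, 0.897 for miR-128, 0.709 for miR-320a and 0.791 for let-7g. On that scale r was 0.981 for miR-26a with miR-151-5p, a miRNA with a mean of 1508 RPM in sera and 1069 RPM in exosomes. Between miR-26a and miR-26b themselves it was 0.791, and between miR-26a and miR-26c it was 0.998.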

How the data were processed

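Small RNA libraries from sera and exosomes of the same 4 cows were sequenced. The authors filtered the reads by quality (CASAVA 1.8), used sRNAbench for adaptor removal and for alignment to bovine miRBase entries, and deposited 1 table of RPM per library. Whole reads were recovered from the RPM steps, with 100% of the values whole within 0.05 RPM. Sample type came from the labels, and the replicate number of a library was taken as the cow. The study states that both samples came from the same cattle. Over 128 miRNAs, deviations from the mean of the sample type had a mean r of 0.806 for the same cow (range 0.740 to 0.860) and of -0.244 for different cows. Deviations within a sample type cancel out. A positive r for the same cow therefore goes with a negative mean r for different cows, and the latter is not separate support for the pairing.

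The main fit was limma (lmFit, eBayes with a trend) on log2(RPM + 1) without the cow. The log2 FC of low miRNAs depends on the pseudocount. The median log2 FC of the 365 miRNAs was 0.72 with a pseudocount of 0.1, 0.57 with 1 and 0.26 with 10. EdgeR's quasi-likelihood test and DESeq2 were run on the recovered reads as alternatives, with other pseudocounts, filters and scalings, the cow as a block, and each library left out. The fits were tested on simulated data, where the share of false calls was above the set FDR for limma, more so than for edgeR. The numbers of sequences in analysis were taken from the study. Genes were matched by synonym to RefSeq, with 526 of 534 listed miRNAs matched. Members, lists and tests were chosen with earlier results of these data known. The named miRNAs are the members, the 5 most alike by r, and the neighbours by mean RPM. The comparison of mature sequences planned for this rule was not made here. Fits used limma 3.58.1, DESeq2 1.42.0 and edgeR 4.0.16 in R 4.3.3, and other steps pandas 2.3.3, SciPy 1.17.1 and NumPy 2.4.6 in Python 3.11.15.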

Additional observations from a re-analysis of the deposited data

How the results depend on the processing

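Over the settings tried, the log2 FC of miR-26b stayed above 0, and its call was lost in 7 of 20 alternatives. The log2 FC was 0.87 with TMM scaling in limma, 0.87 with edgeR, 0.86 with edgeR and the cow as a replicate block, 0.79 without the erythrocyte miRNAs, 0.75 with DESeq2 and 0.36 with the sequences in analysis as the denominator. With a library left out it ranged from 0.91 (without the serum of cow 3, where the call was lost) to 1.18. With the sequences in analysis as the denominator, miR-26a and miR-26c turned to -0.34 and -0.37. The family's share was then 0.0759% to 0.121% in sera and 0.0900% to 0.193% in exosomes, a difference of -0.0235 percentage points. As a share of the miRNA reads the difference was 0.408 percentage points, so the sizes of these differences cannot be compared. MiR-26a kept its direction in the other 19 alternatives, and miR-26c in the other 18. Some of these, such as the other filters and the block in limma, could not change the log2 FC of a member. For the ratio of miR-26b to miR-26a, the log2 difference was 0.70 with a pseudocount of 10. With a library left out it ranged from 0.63 to 0.79. The mean ratio of miR-26c to miR-26a was 0.811 from summed reads and 0.813 to 0.820 with a library left out. Leaving out 1 library can move a mean by only a part of the spread between libraries, so these ranges are given as a description. Of all miRNAs, 16 were called, against 6 with the sequences in analysis, 10 without the erythrocyte miRNAs, and, with a replicate block for the cow, 35 with limma and 26 with edgeR. Against the same tool without it, that block changed no call of a member. MiR-26b in exosomes rested on 78 to 169 reads, which limits the precision of its ratio there.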

Other observations

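Other pairs of listed miRNAs also have RefSeq genes that overlap on the assembly ARS-UCD2.0, and with at least 10 reads in every library there were 4 such pairs beside miR-26a and miR-26c. The ratio of miR-199a-3p to miR-3604 was 1.17 to 1.26 over the 8 libraries, with a chi-square of 0.152 per degree of freedom. That of miR-3596 to let-7b was 0.591 to 0.720, with a chi-square of 0.194 per degree of freedom. That of miR-2957 to miR-152 was 0.897 to 1, with a chi-square of 0.0202 per degree of freedom. The ratio of miR-3604 to miR-199b varied more, from 8.96 to 19.0, with a chi-square of 4.05 per degree of freedom. Among the 1032 miRNA genes of the table, 6 share both their start and their end with another, and MIR26A-1 and MIR26C are 2 of them. These pairs were looked up after the steady ratio of miR-26c to miR-26a had been seen.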
